A study of Homo sapiens with 2 samples.

Results

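The insulin-like growth factor (IGF) axis was examined in cultured mesothelioma cells in which CD26, the cell surface peptidase encoded by DPP4, had been lowered or raised. The genes considered were the IGF-binding protein genes IGFBP1 to IGFBP7, the ligand gene IGF2 and the receptor genes IGF1R and IGF2R. They were chosen by symbol, with earlier results of these arrays known, and each of the 10 had 1 probe among the 12445 genes named on the array. Of the 10, 8 had a value on both arrays, and IGFBP1 and IGFBP5 had none on either. Of all named genes, 13.6% had no value on either array.

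The study used 2 two-colour arrays. The first set total RNA of CD26-depleted ACC-MESO1 cells against control ACC-MESO1 cells, and the second did the same for MSTO-211H cells that received a pLNCX2 vector carrying CD26 and for control MSTO-211H cells. Both are established human mesothelioma lines, grown in medium with fetal calf serum and antibiotics. The depleting agent is named both as siRNA and as shRNA in the labels, which give neither what the control cells received nor whether the transfected cells were a clone or a pool. Each comparison rests on 1 array (n = 1), so no value has a replicate check and no p-value is given. Precision is limited by the number of arrays.

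Each value is a log2 ratio, with the manipulated cells over their control. A log2 ratio of 1 in size is a 2-fold difference, and a gene at or beyond it is called past 2-fold here. The median probe of each array stood at 0. As a scale for disagreement between probes, different probes of a gene had a pooled SD of 0.42 on the depletion array (566 genes with several probes). It was 0.45 on the transfection array (471 genes). This SD holds no variation between cultures or between arrays, which 1 array per comparison cannot give. Control cells carried Cy5 and manipulated cells Cy3 on both arrays, with no dye swap, so a dye effect on a probe cannot be told apart from the manipulation within an array. A ratio also cannot tell fewer cells making a transcript from less transcript per cell. DPP4, measured by 1 probe, stood at a log2 ratio of -3.92 in depleted and 5.51 in transfected cells, the directions that the labels give.

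IGF1 and IGF2 are secreted growth factors that signal through the tyrosine kinase receptor encoded by IGF1R, while the IGF2R product, the cation-independent mannose phosphate receptor, takes up IGF2 for degradation. IGF-binding proteins hold the ligands outside the cell, prolong their half-lives and, depending on the setting, block or deliver them to the receptor. Proteases such as PAPPA release the ligand by cutting the binding protein. IGFBP7 binds IGFs with low affinity and is also known as a protein of the vascular and stromal matrix. Mesothelioma cells are known to make IGF ligands and receptors.

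RefSeq promoter entries (GRCh38.p14) were matched for 7 of the 10 genes, at 9 start sites in all. IGFBP1, IGFBP7 and IGF2 had no entry. The 250 bases before the start are shown for IGFBP4 and IGFBP6, the members with the highest and second highest log2 ratio in depleted cells. Capitals mark matches, on either strand, to the TATA box letters TATAAA, the AP-1 letters TGANTCA, the TEAD letters GGAATG and the FOXO letters TGTTTAC.
IGFBP4, chr17:40443200-40443449, plus strand: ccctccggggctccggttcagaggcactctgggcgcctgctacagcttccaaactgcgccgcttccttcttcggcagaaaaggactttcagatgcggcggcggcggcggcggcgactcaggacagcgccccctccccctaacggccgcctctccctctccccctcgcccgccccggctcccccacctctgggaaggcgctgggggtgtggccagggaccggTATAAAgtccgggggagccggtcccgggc
IGFBP6, chr12:53097417-53097666, plus strand: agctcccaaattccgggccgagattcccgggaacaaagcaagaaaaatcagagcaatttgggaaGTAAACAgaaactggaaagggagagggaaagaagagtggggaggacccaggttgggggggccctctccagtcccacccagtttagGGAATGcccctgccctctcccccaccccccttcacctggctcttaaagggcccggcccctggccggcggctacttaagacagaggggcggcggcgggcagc
TATAAA was found at 1 of the 9 member starts, that of IGFBP4, where it ended 23 bases before the start, and in 10.7% of all 35116 promoter entries cut to the same length. The FOXO letters were found at 1 of 9, that of IGFBP6, and in 2.98% of all entries. The TEAD letters were found at 2 of 9, IGFBP5 and IGFBP6, and in 11.9% of all. The AP-1 letters were found at 0 of 9 and in 6.57% of all. The SP1-type GC box letters GGGCGG, not marked, were found at 7 of 9 and in 42.6% of all. No motif overlapped another among the matches in capitals. These matches describe the letters of the windows only.

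In depleted ACC-MESO1 cells, 1 of the 8 measured members was at least 2-fold higher, IGFBP4, and 1 was at least 2-fold lower, IGFBP7. Over all 10347 genes with a value there, 4.86% were past 2-fold, 3.31% higher and 1.56% lower. In transfected MSTO-211H cells, 1 of 8 was at least 2-fold higher, IGFBP7, and 0 of 8 were at least 2-fold lower. Over all 9359 genes with a value there, 5.46% were past 2-fold, 4.09% higher and 1.37% lower. Beyond 1 SD between probes of a gene stood 2 of 8 members after depletion, beside 29% of all genes, and 3 of 8 after transfection, beside 26.5%. Since the members were proposed with these values known, nothing is read from these counts. The median over the members was 0.06 after depletion and -0.08 after transfection, beside medians of 0.01 and 0.01 over all genes. The middle of the set therefore lay near that of all genes on both arrays, and the members that stood away from it were single genes.

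**Figure D1:**
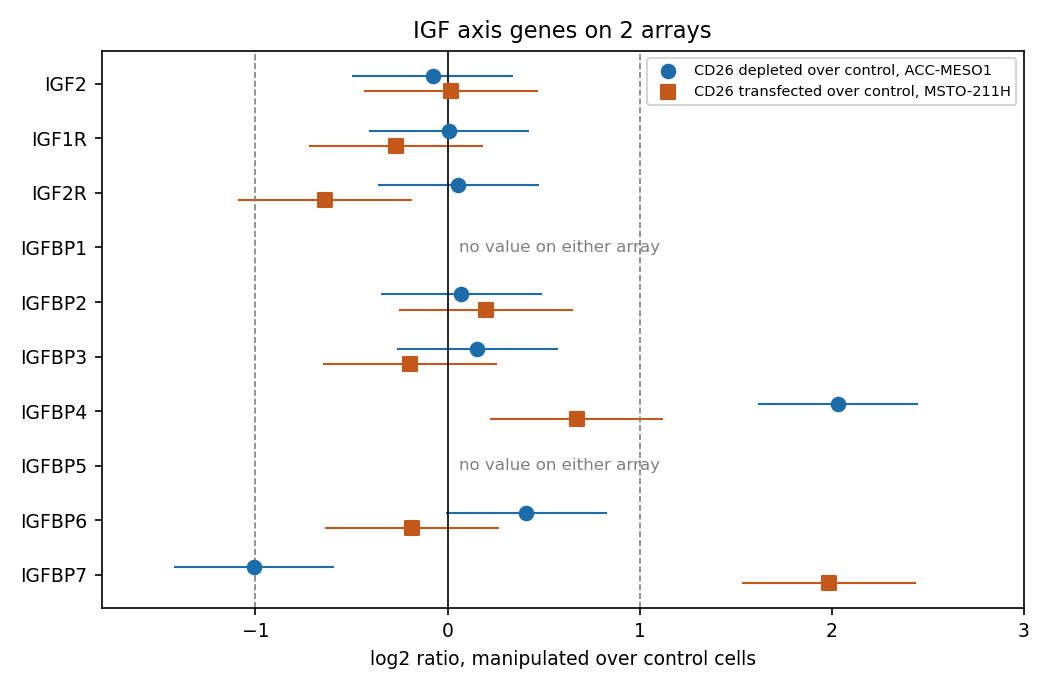
Log2 ratio (manipulated over control cells, x axis) of each IGF axis gene on the depletion array (circles) and the transfection array (squares). Horizontal bars span 1 pooled SD between probes of a gene on each side (0.42 and 0.45), dashed lines mark a log2 ratio of 1 in size, and only the points of IGFBP4 and IGFBP7 reach or pass them.

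IGFBP7 had opposite signs on the arrays. Its log2 ratio was -1.01 in depleted ACC-MESO1 cells, a 2.01-fold lower level, and 1.99 in transfected MSTO-211H cells, a 3.96-fold higher level. It was thus lower where DPP4 was lower and higher where DPP4 was higher, in different cell lines and with the same dye orientation. Without a dye swap, a dye effect on either value was not tested. The depletion value stood just beyond 2-fold, as the 156th lowest of 10347 genes, while the transfection value was the 33rd highest of 9359. In units of the SD between probes of a gene, these values were -2.41 and 4.39. When each array was centred on its ribosomal protein genes, which moved every gene up by 0.35 on the depletion array and by 0.25 on the transfection array, IGFBP7 stood at -0.65 and 2.24. It kept its signs there but was no longer past 2-fold in depleted cells.

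The difference between the log2 ratios of IGFBP7, transfection minus depletion, was 2.99. Among the 8956 genes with a value on both arrays, this was the 6th largest. Past 2-fold on both arrays in the direction of DPP4 were 12 of the 8956 genes (0.134%), DPP4 itself included, with IGFBP7 as the member among them. With ribosomal protein centring IGFBP7 was no longer in this class. Since the members were proposed with these values known, nothing is read from the rank or class of IGFBP7. In the opposite class, higher in depleted and lower in transfected cells, were 0.0558% of genes and 0 of 8 members. The genes with the nearest pair of log2 ratios, by Euclidean distance over the 2 arrays, were C3orf18 (-1.17 and 1.81), TARS2, which encodes the mitochondrial threonyl-tRNA synthetase (-1.24 and 2.18), and SEC24A, which encodes a subunit of the vesicle coat for export from the endoplasmic reticulum (-1.04 and 1.57). Each of these rested on 1 probe, and the likeness is over 2 values only.

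IGFBP4, which encodes a binding protein that mainly holds IGFs away from their receptor, was higher on both arrays. Its log2 ratio was 2.03 in depleted ACC-MESO1 cells, a 4.09-fold higher level, and 0.67 in transfected MSTO-211H cells, a 1.59-fold higher level. The depletion value was the 32nd highest of 10347 genes and the transfection value the 793rd highest of 9359. The transfection value was short of 2-fold and stood at 1.49 SDs between probes of a gene. The depletion value lay 1.62 above the next member, IGFBP6. Centred on ribosomal protein genes, IGFBP4 stood at 2.39 and 0.92. The dye orientation was the same on both arrays, with no dye swap, so a dye effect and the manipulation cannot be told apart. The nearest genes by the same distance were RUNX1-IT1 (1.99 and 0.37), ALOX5AP, which encodes the activating protein of arachidonate lipoxygenase (1.92 and 0.37), and PRPS1L1 (1.65 and 0.44).

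**Figure D2:**
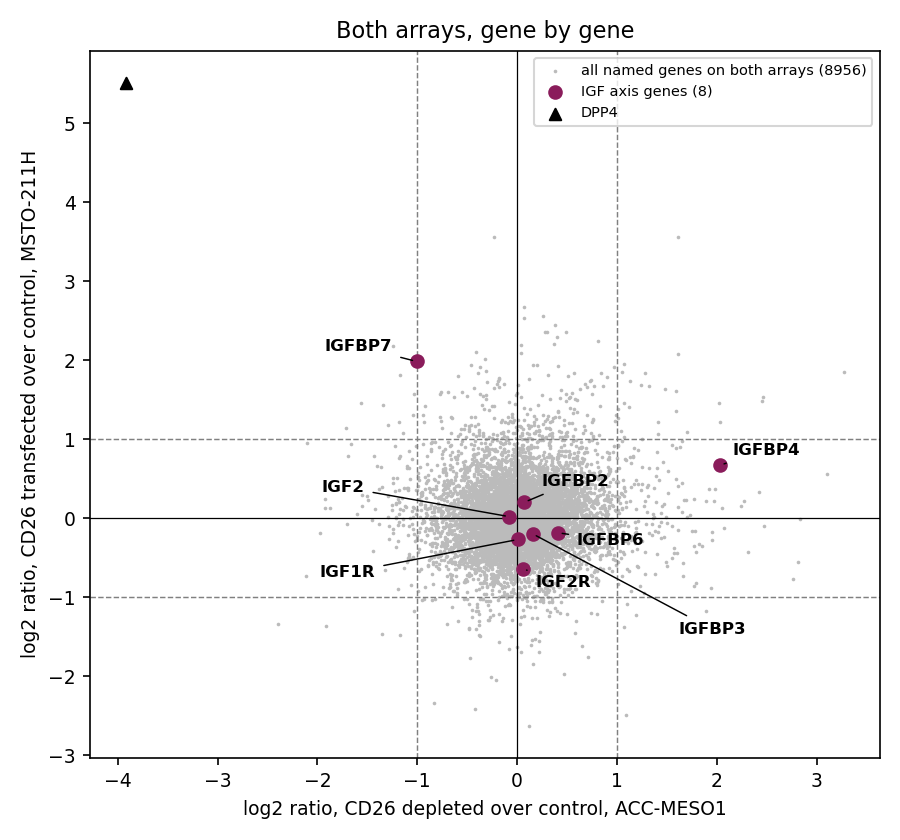
Log2 ratio on the depletion array (x axis) against the transfection array (y axis) for the 8956 named genes measured on both (grey), the 8 IGF axis genes among them (purple) and DPP4 (triangle). Dashed lines mark a log2 ratio of 1 in size. IGFBP7 lies toward DPP4 in the upper left, IGFBP4 lies at the right, and the other members lie within the main cloud.

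The remaining binding protein genes stayed close to 0. IGFBP2, whose product carries IGFs in serum and tissue fluids, was at 0.07 after depletion and 0.20 after transfection. IGFBP3, which encodes the main serum carrier of IGFs, had 0.15 and -0.20. IGFBP6, whose product prefers IGF2 as its ligand, had 0.41 and -0.18. All of these values were within 1 SD between probes of a gene, although IGFBP6 after depletion was at 0.98 of it. Centred on ribosomal protein genes, IGFBP2 (0.43), IGFBP3 (0.51) and IGFBP6 (0.76) were beyond that SD in depleted cells. IGFBP2 was at the edge of it in transfected cells (0.45). That centring moved every gene up by 0.35 on the depletion array, and the share of all genes then beyond the SD was not counted. In depleted cells 56.8%, 65.1% and 83.3% of all genes lay below IGFBP2, IGFBP3 and IGFBP6. Only IGFBP2 of these had the same sign on both arrays, and IGFBP3 (0.05) and IGFBP6 (0.07) turned positive in transfected cells when centred on ribosomal protein genes. IGFBP2 and IGFBP5 are neighbours on one chromosome, as are IGFBP1 and IGFBP3 on another, but each pair had a value for 1 gene only, so the pairs could not be compared.

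Among ligand and receptor genes, IGF2 was at -0.08 in depleted cells, which became 0.28 when centred on ribosomal protein genes, and 0.02 in transfected cells. IGF1R had 0.01 and -0.27. IGF2R had 0.06 in depleted cells and -0.64 in transfected cells, a 1.56-fold lower level there, with 5.34% of all genes below it. The IGF2R value in transfected cells was thus the lowest of the 8 members on that array, beyond 1 SD between probes of a gene but short of 2-fold, and it stood at -0.39 when centred on ribosomal protein genes. The signs of 6 of the 8 members differed between the arrays, beside 46.9% of the 8956 genes. With ribosomal protein centring the count was 3 of 8, beside 31.4% of genes. For 5 of the 8 members, IGFBP2, IGFBP3, IGFBP6, IGF1R and IGF2, both values were within 1 SD between probes of a gene. With that centring this held for 3 of 8, IGF1R, IGF2 and IGF2R. The share of all genes with both values within that SD was not counted, so nothing is read from these counts. Beyond it as deposited were 29% of all genes after depletion and 26.5% after transfection.

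In order of log2 ratio, the depletion array ran IGFBP4, IGFBP6, IGFBP3, IGFBP2, IGF2R, IGF1R, IGF2, IGFBP7. The 6 genes from IGFBP6 to IGF2 followed each other by at most 0.26, less than the SD of 0.42 between probes, and IGFBP7 lay 0.93 below IGF2. On the transfection array the order was IGFBP7, IGFBP4, IGFBP2, IGF2, IGFBP6, IGFBP3, IGF1R, IGF2R. There IGFBP7 lay 1.31 above IGFBP4, and IGFBP4 lay 0.47 above IGFBP2. From IGFBP2 down to IGF2R, neighbours in the order were at most 0.37 apart, less than the SD of 0.45.

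The genes beside the members on the chromosome were also compared. Each neighbour was the nearest measured gene on its side, at any distance. In the RefSeq gene order, the nearest measured genes beside IGFBP7 were POLR2B, for a subunit of RNA polymerase II (-0.10 and -0.22), and EPHA5, for an ephrin receptor (0.22 after depletion, no value after transfection). Beside IGFBP4 they were the retinoic acid receptor gene RARA (-0.12 and -0.22) and the chemokine receptor gene CCR7 (0.07 and 0.35). Neither IGFBP7 nor IGFBP4 thus had a measured neighbour past 2-fold. Over the members' 16 neighbours that are no members, 0 of 14 measured were past 2-fold after depletion, beside 4.86% of all genes. After transfection 1 of 15 was higher and 1 was lower, beside 5.46% of all genes past 2-fold. With ribosomal protein centring, 2 of 14 were at least 2-fold higher after depletion, MAS1 (1.33) and CSAD (1.11). MAS1 alone was past 2-fold after transfection (1.48). Over all genes, that centring put 895 of 10347 past 2-fold after depletion and 738 of 9359 after transfection.

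The neighbours past 2-fold in transfected cells lay beside IGF2 and IGF2R. H19, an imprinted noncoding RNA gene that shares enhancers with IGF2 and is expressed from the other parental copy, had a log2 ratio of -1.20 in transfected cells, or -0.95 and so short of 2-fold with ribosomal protein centring, and no value in depleted cells. IGF2 itself was at 0.02 there, and IGF2-AS, the gene of an antisense transcript at the locus, was at -0.17 after depletion and 0.52 after transfection. The sources used here do not give the strand of the probes, so sense and antisense transcripts of the locus cannot be told apart with certainty. MAS1, a G protein-coupled receptor gene beside IGF2R, had 0.98 after depletion and 1.23 after transfection. SLC22A3, an organic cation transporter gene on the other side of IGF2R, had -0.16 and -0.85.

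**Figure D3:**
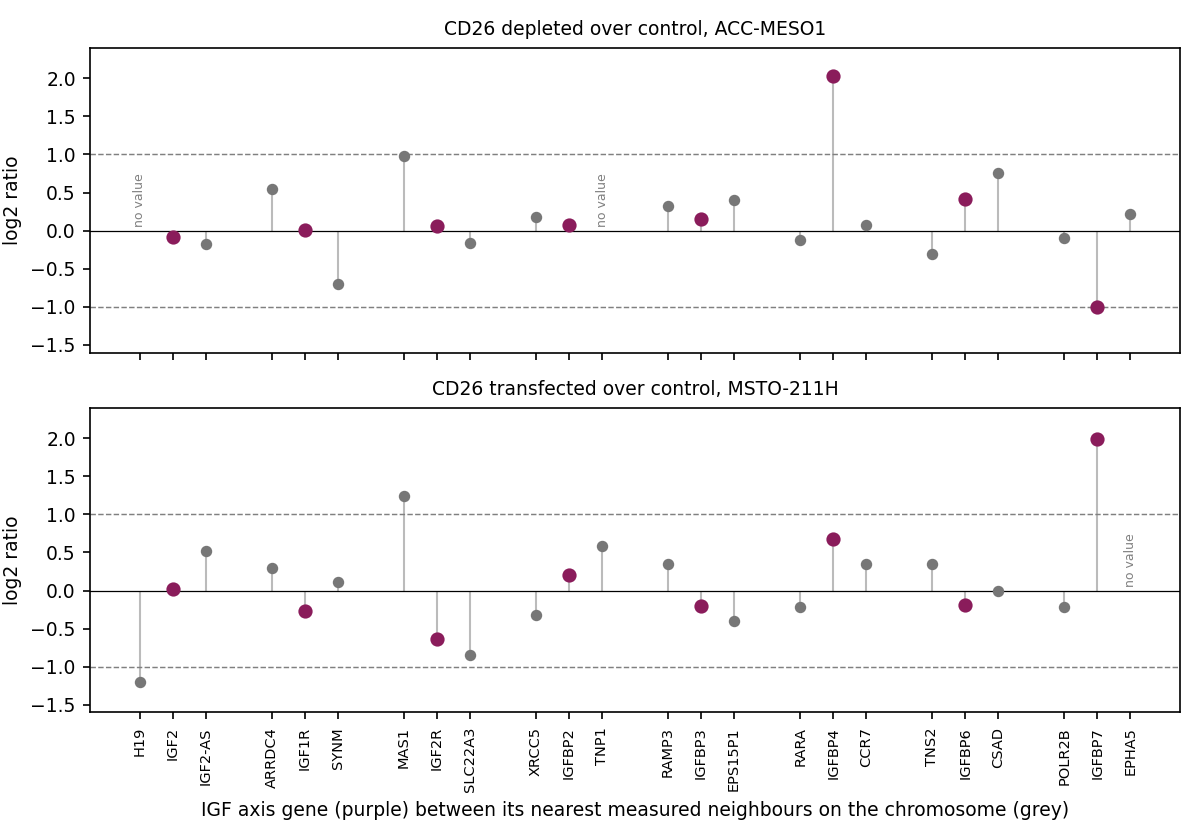
Log2 ratio (y axis) of each measured IGF axis gene (purple) between its nearest measured neighbours in the RefSeq gene order (grey), for the depletion array (top) and the transfection array (bottom). Dashed lines mark a log2 ratio of 1 in size. IGFBP7 stands away from its measured neighbours on both arrays, although EPHA5 has no value in transfected cells. IGFBP4 stands away from its neighbours in depleted cells, but in transfected cells it (0.67) lies nearer to CCR7 (0.35). H19 and MAS1 pass the lines in transfected cells.

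Beyond the members, 8 lists held 111 other genes of the pathway, of which 77 were measured after depletion and 74 after transfection. After depletion, 5 of 77 were at least 2-fold higher and 1 was at least 2-fold lower, or 7.79% in all beside 4.86% of all genes. Of those with a value on both arrays, 4 of 70 were past 2-fold after depletion, beside 319 of 8956 over all genes. After transfection, 1 of 74 was higher and 3 were lower, or 5.41% beside 5.46% of all genes. The median over these genes was -0.01 after depletion and -0.11 after transfection. With ribosomal protein centring, the split was 10 higher and 0 lower after depletion, and 5 higher and 2 lower after transfection. That centring moved every gene up on both arrays. Over all genes it gave 853 higher and 42 lower of 10347 after depletion, and 685 and 53 of 9359 after transfection. Past 2-fold with that centring alone were INSL3, INSL5, STC1, BCL6 and CCN1 after depletion, and INSRR, GAB1, RPS6KB1 and BCL2L11 after transfection.

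The list of 9 further ligand, receptor and co-receptor genes includes INSL3, INSL4, INSL5, INSL6 and INSRR. These are relatives of insulin and its receptor, and no part in IGF signalling is assumed for them here. The insulin receptor gene INSR stood out in transfected cells with -1.29 (2.45-fold lower). It was at -0.29 in depleted cells, which became 0.07 with ribosomal protein centring. Its product forms hybrid receptors with that of IGF1R and in one isoform binds IGF2. The other measured genes of this list were short of 2-fold as deposited, while with ribosomal protein centring INSL5 (1.18) and INSL3 (1.14) were past it in depleted cells and INSRR (1.02) in transfected cells. IGF1 was at 0.09 and -0.28, insulin (INS) at 0.11 and 0.35, and the acid-labile subunit gene IGFALS, whose product joins IGF and IGFBP3 in serum, at 0.09 and 0.17. The highest as deposited were INSL5 (0.83) in depleted cells and the insulin receptor-related gene INSRR (0.77) in transfected cells.

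Proteins that share the IGFBP-type amino-terminal domain include the serine protease HTRA1, which was at 1.08 (2.11-fold higher) after depletion and -0.29 after transfection. KAZALD1, which encodes a Kazal-domain member of this group, was at -0.73 and 0.69, and endocan (ESM1) was at 0.24 and -0.81. The matricellular CCN genes belong to the same superfamily. CCN2 was at 2.83 after depletion (7.11-fold higher) and -0.01 after transfection, CCN1 at 0.85 (1.20 with ribosomal protein centring) and 0.15, and CCN5 at 0.63 and -0.37. No CCN gene was past 2-fold in transfected cells, and CCN2 turned to 0.24 there with ribosomal protein centring.

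Of 13 genes for proteases that cut IGF-binding proteins and for their inhibitors, 12 had a value after depletion and 2 were past 2-fold, both higher. MMP3, stromelysin, was at 3.75 (13.5-fold) and the plasminogen gene PLG, with 1 of its 2 probes measured, was at 1.31. Neither had a value on the transfection array. Over all genes, 503 of 10347 were past 2-fold after depletion, but 319 of 8956 among those with a value on both arrays. PAPPA, the main protease of IGFBP4, was at -0.63 in depleted and 0.13 in transfected cells, or -0.27 and 0.38 with ribosomal protein centring. STC2, an inhibitor of PAPPA, was at -0.75 and 0.43, and its relative STC1 was at 0.69 after depletion (1.04 with ribosomal protein centring) with no value after transfection. No gene of this list was past 2-fold in transfected cells, where MMP9 (-0.98) was the lowest and the serine protease gene PRSS23 (0.60) the highest.

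**Figure D4:**
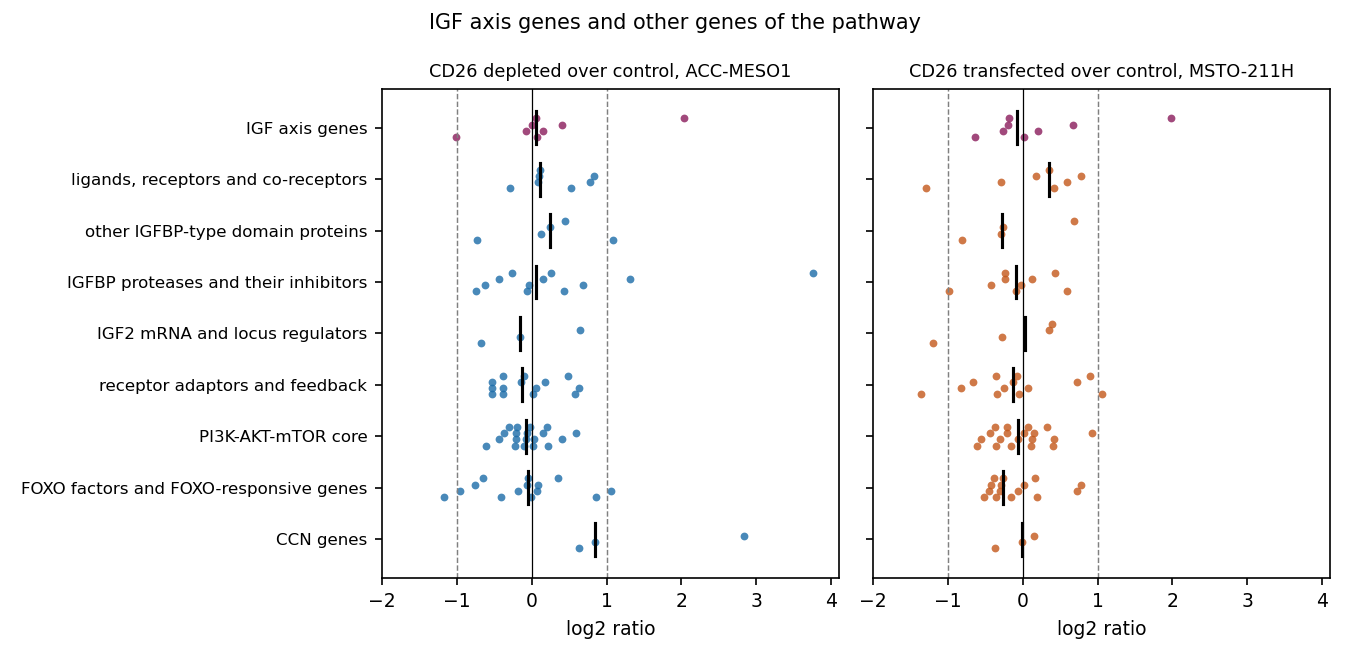
Log2 ratios (x axis) of the IGF axis genes (purple) and of 8 lists of other pathway genes, with 1 point per gene, for the depletion array (left) and the transfection array (right). Black bars are list medians and dashed lines mark a log2 ratio of 1 in size. MMP3 (3.75) and CCN2 (2.83) are the points farthest right after depletion, and SOCS2 (-1.36) and INSR (-1.29) are farthest left after transfection.

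Of the regulators of IGF2 RNA and its locus, H19 was past 2-fold after transfection as deposited, and none of the 3 measured after depletion was. CTCFL (0.64) was the highest in depleted cells and PLAG1 (0.39) in transfected cells. The zinc finger factors CTCF and PLAGL1 were at -0.16 and -0.68 in depleted cells and at -0.28 and 0.34 in transfected cells. Of the receptor adaptor and feedback genes, 0 of 14 were past 2-fold after depletion, where they ranged from -0.53 (SOS2) to 0.64 (SOCS1). After transfection 2 of 13 were, GRB14 (1.05), an adaptor that inhibits the insulin receptor, and SOCS2 (-1.36), a feedback inhibitor of growth hormone signalling. The docking protein gene GAB1 was at 0.90 there, or 1.15 with ribosomal protein centring. The insulin receptor substrate genes IRS1 (-0.38 and -0.25) and IRS2 (-0.11 and -0.66) were below 0 on both arrays as deposited. With ribosomal protein centring IRS1 stood at -0.02 in depleted and -3.3e-05 in transfected cells, and IRS2 at 0.25 and -0.41.

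Core genes of the PI3K, AKT and mTOR cascade, which carries the receptor signal to growth and protein synthesis, had no member past 2-fold among 19 measured on each array as deposited, while RPS6KB1 stood at 1.18 in transfected cells with ribosomal protein centring. Their medians were -0.07 and -0.06. They ranged from -0.61 (PIK3R3) to 0.59 (PDPK1) in depleted cells and from -0.61 (RHEB) to 0.93 (RPS6KB1) in transfected cells. AKT1 was at -0.21 (0.15 with that centring) and 0.33. MTOR was at 0.03 and -0.30. Of FOXO factors and FOXO-responsive genes, which AKT holds in check, the pseudokinase gene TRIB1 was at 1.06 and the pro-apoptotic gene BCL2L11 at -1.17 in depleted cells, and both were short of 2-fold in transfected cells (-0.42 and 0.78). With ribosomal protein centring BCL2L11 was short of 2-fold in depleted cells (-0.82) and past it in transfected cells (1.03), and BCL6 (0.86 as deposited) stood at 1.21 in depleted cells. The lowest of this list in transfected cells was G6PC1 (-0.52). FOXO1 was at -0.76 and -0.35 and FOXO3 at 0.35 and 0.73.

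Levels of any one gene were not used here, only ratios, so the cell type of each line could not be checked against marker levels. Of mesothelial markers, 1 of 11 was past 2-fold after depletion, ITLN1 (1.38). After transfection 2 of 10 were, mesothelin (MSLN, -1.31) and KRT18 (-1.16), while the highest there was UPK3B (0.66). The medians of this list were 0.06 and -0.05. With ribosomal protein centring KRT18 (-0.91) was short of 2-fold and KRT7 (1.13) was past it after depletion. Fibroblast and endothelial markers are of interest because IGFBP7 is abundant in those cells. Of 9 fibroblast markers measured after depletion MFAP5 (1.96) was past 2-fold, and 0 of 7 were after transfection, where their median was -0.54 and THY1 (0.75) reached 1.00 with that centring. Of endothelial markers, 0 of 6 and 0 of 5 were past 2-fold, with medians of -0.07 and -0.42. Of lymphocyte markers, 0 of 2 were past 2-fold after depletion and 1 of 3 after transfection, CD3E (1.88), beside CD3D (-0.76) and CD79A (0.02). Of myeloid markers, 0 of 3 were past 2-fold on either array, with medians of 0.47 and -0.30, although CSF1R (0.93) stood at 1.28 after depletion with that centring. The part of any of these markers in the IGFBP7 values was not tested.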

How the data were processed

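Per the labels' protocols, TRIZOL-extracted total RNA was amplified to amino allyl aRNA, and control cells were labelled with Cy5 and manipulated cells with Cy3. The authors deposited normalized log2 ratios of manipulated over control cells for 24267 probes, with this direction per the labels' descriptions. The sources used here do not give the background correction, normalization method, scanner or rule for missing values, and channel intensities were not used here. The array annotation named 1 gene for 13395 probes. The other 10872, with no gene or more than 1 named, were not used for gene values. RefSeq (GRCh38.p14) held 10076 symbols as current and gave 2285 a new symbol by a unique synonym, while 113 ambiguous ones stayed unchanged. A gene's value is the mean of its probes (Python 3.11.15, pandas 2.3.3), which gave 10347 and 9359 genes. Past 2-fold (log2 ratio 1 or more in size) were 342 higher and 161 lower after depletion (853 and 42 with ribosomal protein centring) and 383 and 128 after transfection (685 and 53). The counting steps were tested on simulated data. The members, lists and motifs were chosen with earlier results of these data known. The naming rule took all members, pathway genes past 2-fold or at the ends of their list, neighbours, and the 3 genes nearest to each member past 2-fold. Other pathway genes and markers were named after their values were seen. Alternatives were other centrings, thresholds, probe rules, gene sets, spread and symbols.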

Additional observations from a re-analysis of the deposited data

How the results depend on the processing

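No paired analysis was possible because each comparison rests on 1 array. The members past 2-fold numbered 2 after depletion, and 1 with ribosomal protein centring or a threshold of 1.5. After transfection they numbered 1, and 3 at a threshold of 0.5. The count of members past the threshold on both arrays in opposite directions was 1 (IGFBP7), and 0 with ribosomal protein centring or at 1.5. Other pathway genes past the threshold numbered 6 after depletion, 10 with ribosomal protein centring, 28 at 0.5 and 2 at 1.5. After transfection they numbered 4, 7 with that centring, 20 at 0.5 and 0 at 1.5. Over all genes, the depletion count of 503 became 895 with that centring, 319 among genes measured on both arrays, 2337 at 0.5 and 147 at 1.5. The transfection count of 511 became 2104 at 0.5 and 163 at 1.5. Shifts with ribosomal protein centring or at another threshold follow from how the alternative is built. The 319 past 2-fold among 8956 genes measured on both arrays were a smaller share than the 503 of 10347 in all. Genes with a value after depletion alone were thus past 2-fold more often. The other 69 values of these counts and medians under an alternative moved by at most 1.5 times or by less than the SD between probes. IGFBP4 after depletion (2.03 to 2.39) and IGFBP7 after transfection (1.96 to 2.24) stayed past 2-fold under the 8 alternatives that give a gene's value. These alternatives could hardly have changed that, so no robustness is read from it. Every member had 1 probe, so the probe rules, gene set and symbols changed no member's value. Ribosomal protein centring moved every gene up, and the other centring and the common spread moved these values little. Without channel intensities, dim and bright probes could not be separated.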
